A study of Mus musculus with 6 samples.

Results

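The genes described are those of the tachykinin system in the mouse habenula, namely the peptide precursor genes Tac1 and Tac2 and the receptor genes Tacr1 and Tacr3. They were taken from the deposited table by gene symbol, which gave 4 of 55359 genes, and all 4 lay above the expression limit used for testing. RNA sequencing was done on total RNA of the habenula, a small paired nucleus at the dorsal edge of the thalamus, from C57BL/6 mice aged 2 months. There were 3 wild-type (WT) libraries and 3 libraries labelled Tet2 cKO, a conditional knockout of Tet2, called the cKO-labelled group below, and no treatment is stated for either. The sources used here do not state what drove the deletion, which exons it removes, the alleles of the controls, or whether each library came from its own mouse. P-values therefore measure the spread between these libraries, which may be technical.

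Tachykinins are short neuropeptides that are cut from larger precursors, amidated at their carboxyl end and released from dense-core vesicles. Tac1 encodes substance P and neurokinin A, and Tac2 encodes neurokinin B (its human counterpart is named TAC3). The peptides act through receptors coupled to Gq and phospholipase C. Substance P prefers the NK1 receptor encoded by Tacr1, neurokinin B the NK3 receptor encoded by Tacr3, and neurokinin A the NK2 receptor encoded by Tacr2. In rodents the dorsal part of the medial habenula is known for its substance P neurons, which project to the interpeduncular nucleus beside the cholinergic neurons of the ventral part. Tac2 is widely used as a marker of medial habenula neurons.

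The coding stretches of the 3 peptides are shown because they define what a count of each gene can and cannot tell. Each line gives the codons of the mature peptide followed by those of the glycine, lysine and arginine at which the precursor is amidated and cut, on the plus strand of GRCm38, from GENCODE release M21. Capitals mark the 15 bases of the carboxy-terminal motif that all tachykinins share, read as phenylalanine, a variable residue, glycine, leucine and methionine.
Substance P, Tac1, chr6:7556732-7556773: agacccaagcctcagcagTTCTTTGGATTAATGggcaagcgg
Neurokinin A, Tac1, chr6:7559101-7559139: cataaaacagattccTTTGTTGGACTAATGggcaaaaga
Neurokinin B, Tac2, chr10:127729116-127729154: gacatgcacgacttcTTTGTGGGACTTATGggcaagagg
Counted from 1 at the first capital, the motif of neurokinin A differs from that of neurokinin B at 2 of 15 bases (T6G and A12T, with the base of neurokinin A first). The motif of substance P differs from that of neurokinin A at 3 bases (C3T, T4G and T10C, with the base of substance P first) and from that of neurokinin B at 5. Of the 4 protein-coding Tac1 transcripts in GENCODE, 3 held the stretch of substance P and 2 that of neurokinin A, while both Tac2 transcripts held that of neurokinin B. The deposited count covers the whole gene, so the Tac1 values below do not separate messages with neurokinin A from those without it.

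The start regions of Tac1 and Tac2 are shown because TET2, the enzyme encoded by the gene named in the knockout label, oxidises methylated cytosine, which in mammals lies mostly in CG pairs. No methylation was measured here. The 300 bases run from 250 before to 50 after the RefSeq start on GRCm38.p6, both on the plus strand, with each CG in capitals.
Tac1, chr6:7554811-7555110: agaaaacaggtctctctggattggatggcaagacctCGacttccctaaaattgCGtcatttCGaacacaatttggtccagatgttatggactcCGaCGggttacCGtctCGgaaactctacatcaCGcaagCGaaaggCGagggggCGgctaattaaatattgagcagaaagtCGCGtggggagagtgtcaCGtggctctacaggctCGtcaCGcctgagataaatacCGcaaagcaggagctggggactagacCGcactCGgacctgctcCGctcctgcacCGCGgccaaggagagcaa
Tac2, chr10:127724228-127724527: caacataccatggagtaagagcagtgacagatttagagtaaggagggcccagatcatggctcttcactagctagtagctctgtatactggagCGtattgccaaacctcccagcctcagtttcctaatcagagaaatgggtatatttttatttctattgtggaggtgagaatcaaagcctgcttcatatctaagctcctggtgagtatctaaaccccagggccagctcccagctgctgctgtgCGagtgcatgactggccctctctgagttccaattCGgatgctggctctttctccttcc
The Tac1 window held 22 CG pairs and that of Tac2 held 3. The median over 32851 RefSeq windows of this length was 7, and 94.6% of them held at least 1. As many as in Tac1 or more were found in 23.1% of windows, and fewer than in Tac2 in 23.3%. The windows of Tacr1 and Tacr3 held 7 and 8.

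Library totals lay between 16089676 and 17917987 counts. Levels are given in FPKM, the authors' counts divided by exonic length and scaled to the same library total. Tet2 itself stood at 3.45, 3.46 and 3.71 FPKM in wild type and at 4.47, 4.02 and 3.96 FPKM in the cKO-labelled group. Every cKO-labelled library thus lay above every WT library, with a log2 difference of 0.22 (95% interval 0.05 to 0.39) that did not pass over all genes (edgeR adjusted p = 0.9999, unadjusted p = 0.0174). The count covers the whole gene, exons that are not deleted included. A loss of Tet2 message was thus not seen in these counts, and directions below refer to the label of a library. Markers of medial habenula neurons were all detected, but at unequal levels. Summed over 8 markers (Pou4f1, Nwd2, Chrna3, Chrnb3, Chrnb4, Chat, Slc18a3 and Slc5a7) they came to 94.9, 115 and 51.0 FPKM in wild type and to 95.5, 72.4 and 95.5 FPKM in the cKO-labelled group. WT replicate 3 stood lowest and Tet2 cKO replicate 2 next. Those were also the libraries with the highest summed level of 6 markers of GABAergic neurons, at 83.4 and 84.3 FPKM against 64.5 to 67.8 FPKM in the others. The part of dissection in the results below was not tested, and in bulk tissue fewer cells of a type and less RNA per cell cannot be told apart.

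Both peptide precursor genes were expressed, Tac2 at the higher level, and neither differed between the groups by more than the libraries differed within them. Tac2 (ENSMUSG00000025400, on GRCm38 at chromosome 10, 127724478 to 127731768, plus strand) stood at 46.0, 49.6 and 30.8 FPKM in wild type and at 57.9, 32.1 and 42.0 FPKM in the cKO-labelled group. The groups overlapped, with the highest library in the cKO-labelled group and the lowest in WT, a span of 1.88-fold. The means were 42.1 ± 9.96 FPKM in wild type and 44.0 ± 13.0 FPKM in the cKO-labelled group (SD, n = 3 each). Counts of 754 to 1391 per library give a counting error of 3.12% against a coefficient of variation of 24.2% over the 6 libraries. Tac2 thus differed by 0.05 on the log2 scale (95% interval -0.42 to 0.53, or 0.746-fold to 1.44-fold), with an adjusted p of 0.9999 by edgeR's quasi-likelihood test with Benjamini-Hochberg adjustment over 14539 genes. Its direction rested on single libraries, since leaving out WT replicate 3 gave -0.12 and leaving out Tet2 cKO replicate 1 gave -0.19.

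**Figure D1:**
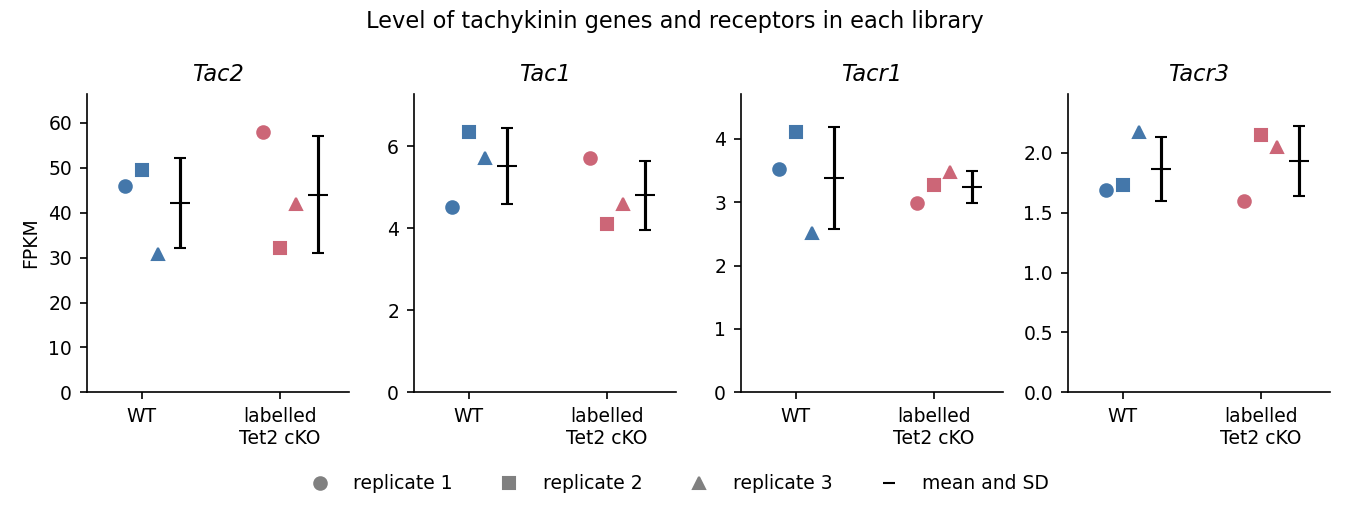
FPKM (vertical axes, each from 0) of Tac2, Tac1, Tacr1 and Tacr3 in the 3 WT libraries (blue) and the 3 libraries labelled Tet2 cKO (red), where symbols give the replicate number and bars the mean ± SD. The groups overlap for every one of the 4 genes, and Tac2 spans 30.8 to 57.9 FPKM.

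Tac1 (ENSMUSG00000061762, chromosome 6, 7554879 to 7565834, plus strand) stood at 4.52, 6.34 and 5.72 FPKM in wild type and at 5.72, 4.10 and 4.59 FPKM in the cKO-labelled group. WT replicate 2 was highest and Tet2 cKO replicate 2 lowest, and 1 of 3 libraries in the cKO-labelled group lay below every WT library. The means were 5.53 ± 0.925 FPKM in wild type and 4.80 ± 0.831 FPKM in the cKO-labelled group (SD, n = 3 each). The log2 difference of -0.21 (95% interval -0.55 to 0.13, or 0.681-fold to 1.10-fold) did not pass (edgeR adjusted p = 0.9999, unadjusted p = 0.200). It kept its sign when any single library was left out, with values from -0.35 to -0.11. The spread over libraries was 17% against a counting error of 5.73%. Tac1 is also known from striatal neurons that make substance P. Detected too were 4 markers of striatal neurons as a whole, a list not limited to those that make substance P. Ppp1r1b stood at 16.0 ± 1.78 FPKM in wild type against 12.1 ± 2.04, Drd2 at 4.56 ± 0.544 against 3.14 ± 0.565, Drd1 at 1.14 ± 0.419 against 0.903 ± 0.215 and Adora2a at 0.630 ± 0.304 against 0.420 ± 0.151 FPKM (SD, n = 3 each). Of these 4 markers only Drd2 did not overlap between groups, while 6.80% of all tested genes did not overlap. None of the 4 passed the edgeR test, for which Adora2a lay under the limit. The log2 differences were -0.54 for Drd2 and -0.4 for Ppp1r1b (edgeR unadjusted p = 0.0086 and 0.0106). Drd1 differed by -0.33 (edgeR unadjusted p = 0.272). An unadjusted p under 0.05 was found in 2.57% of all tested genes. Summed over the 4 markers, of which Ppp1r1b held the largest part, every WT library lay above every cKO-labelled library. The summed levels of 6 hippocampal and dentate markers (41.0 to 46.4 against 35.0 to 36.4 FPKM) and of 5 ependymal markers (43.9 to 55.1 against 32.9 to 41.0 FPKM) did not overlap either. As a mean of log2(FPKM + 0.1), the hippocampal and dentate list did overlap (1.86, 2.0 and 1.66 in wild type against 1.78, 1.59 and 1.76). The ependymal list still did not (3.14, 3.21 and 3.44 against 2.83, 3.02 and 2.7). The part of these striatal, hippocampal and ependymal markers in the Tac1 value was not tested. Tac4, the remaining tachykinin precursor gene, which encodes hemokinin, had 1 count in all, in WT replicate 1, and 0 in the libraries labelled Tet2 cKO, where a count of 0 allows up to 3.

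The receptor genes were expressed at lower levels than the precursors and did not differ between groups beyond the spread. Tacr1 (ENSMUSG00000030043, chromosome 6, 82402334 to 82560104, plus strand) stood at 3.52, 4.10 and 2.51 FPKM in wild type and at 2.98, 3.27 and 3.47 FPKM in the cKO-labelled group. Its highest and lowest libraries were both WT, so the range in the cKO-labelled group lay wholly inside that of WT. The means were 3.38 ± 0.805 FPKM and 3.24 ± 0.246 FPKM (SD, n = 3 each), a coefficient of variation of 23.8% in WT and 7.68% in the cKO-labelled group. Tacr1 differed by -0.06 on the log2 scale (95% interval -0.42 to 0.29, or 0.746-fold to 1.22-fold, edgeR adjusted p = 0.9999), and without WT replicate 2 it was 0.091.

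Tacr3 (ENSMUSG00000028172, chromosome 3, 134829007 to 134934579, plus strand) stood at 1.69, 1.73 and 2.17 FPKM in wild type and at 1.60, 2.15 and 2.05 FPKM in the cKO-labelled group. It was highest in WT replicate 3 and Tet2 cKO replicate 2, where the medial habenula markers and Tac2 were lowest, and lowest in Tet2 cKO replicate 1, where Tac2 was highest. The means were 1.86 ± 0.266 FPKM and 1.93 ± 0.293 FPKM (SD, n = 3 each). With 105 to 145 counts per library its counting error was 8.96% against a spread of 13.3%, the closest of the 4 genes. Tacr3 differed by 0.04 on the log2 scale (95% interval -0.35 to 0.44, or 0.785-fold to 1.35-fold, edgeR adjusted p = 0.9999). It was -0.022, -0.012 and -0.041 without WT replicate 1, WT replicate 2 and Tet2 cKO replicate 2. Tacr2 had 0 to 4 counts per library, 6 in all in each group, and no fold is given for it.

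Of the 4 genes, 0 passed the edgeR test, and the share called over all 14539 tested genes was also 0%. The unadjusted p was under 0.05 for 374 tested genes, or 2.57%, and for none of the 4. DESeq2 called 4 of the same 14539 genes, and none of these was a tachykinin or receptor gene. Groups that did not overlap in FPKM were found in 6.80% of tested genes (3.34% with the cKO-labelled group higher and 3.46% with it lower) and in 0 of the 4.

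**Figure D2:**
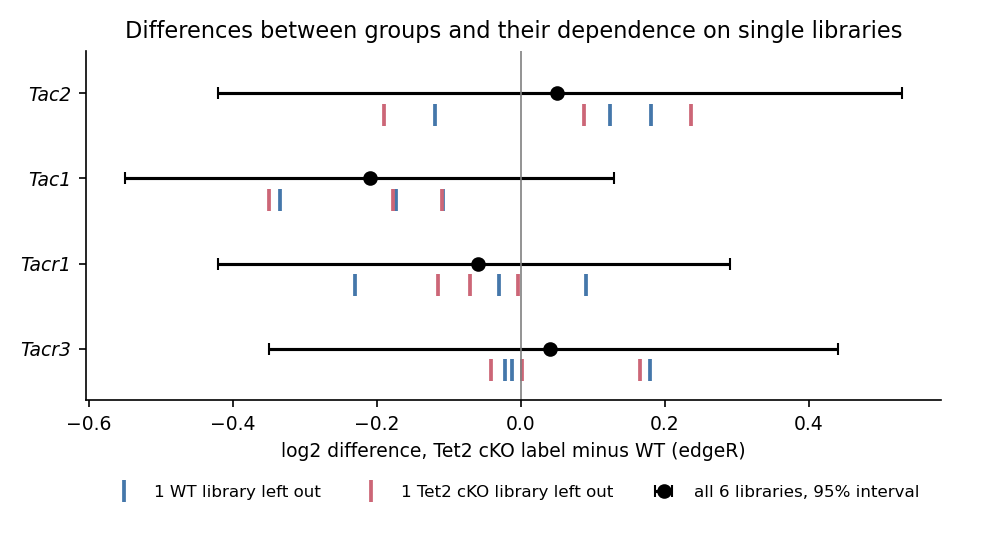
Log2 difference, Tet2 cKO label minus WT, for the 4 genes (black points with 95% intervals, edgeR), and the same difference with 1 library left out (blue ticks for a WT library, red for a Tet2 cKO library). Every interval spans 0, and only the ticks of Tac1 all lie on 1 side of 0, from -0.35 to -0.11.

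The order of levels within each library, compared per length, was the same for the 4 genes in all 6 libraries. Tac2 lay above Tac1 by 3.02 on the log2(FPKM + 0.1) scale, or 8.09-fold, with 2.41 in the library of the smallest gap. Tac1 lay above Tacr1 by 0.63 (1.54-fold), Tacr1 above Tacr3 by 0.76 (1.70-fold) and Tacr3 above Tacr2 by 3.75. Tacr2, at a mean of 0.0517 FPKM, lay below the added 0.1, so the size of that last step depends on the added value. Each of these 4 steps held in 6 of 6 libraries (exact two-sided sign-flip permutation test, p = 0.0312, the smallest that 6 libraries can give, adjusted p = 0.0391 over 5 steps). Tacr2 and Tac4 could not be ordered, being apart in that direction in 4 of 6 libraries (exact permutation p = 0.125). The neighbours were set by mean FPKM over these same 6 libraries, WT and cKO-labelled together. The p-values of the steps therefore add no support beyond the counts of libraries. Over the tested genes Tac2 ranked 987th of 14539 by mean FPKM, Tac1 8232nd, Tacr1 10226th and Tacr3 12312th.

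The size of these steps depends on the length used. The deposited exonic size of Tac1 is 3399 bases, or 2.76 times its longest protein-coding transcript in GENCODE (1230 bases). For Tac2 and Tacr1 the factor was 1.62 and 1.29, and for Tacr3 it was 1. Counts per kilobase of the longest protein-coding transcript and scaled to the library total, an alternative chosen after the data were seen, gave means of 69.7 for Tac2, 14.3 for Tac1, 4.28 for Tacr1 and 1.9 for Tacr3. The order stayed the same in 6 of 6 libraries, while Tac2 lay 4.79-fold above Tac1 and Tac1 3.28-fold above Tacr1.

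Setting Tac2 against the medial habenula markers narrowed its spread in both groups, while the spread of Tacr3 widened in both. The log2(FPKM + 0.1) value of Tac2 had an SD of 0.367 over the WT libraries and 0.424 over those labelled Tet2 cKO (n = 3 each). Taken relative to the mean log2 value of the 8 medial habenula markers in the same library, the SD was 0.228 and 0.239. Tac2 then stood at 4.65, 4.27 and 5.80 times the geometric mean of the markers in WT and at 5.79, 4.37 and 4.31 times in the cKO-labelled group. For Tacr3 the same step widened the SD in both groups, from 0.189 to 0.778 in WT and from 0.217 to 0.424 in the cKO-labelled group. For Tac1 the SD went from 0.246 to 0.648 in WT and from 0.239 to 0.150 in the cKO-labelled group, and for Tacr1 from 0.351 to 0.248 and from 0.107 to 0.287. Tac1 was not low in WT replicate 3 (5.72 FPKM), the library with the lowest markers. These SDs rest on 3 libraries each and are given as a description, with no test of their difference.

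The widths differed by the markers used. Relative to 6 markers of the dorsal medial habenula (Calb1, Col16a1, Wif1, Adcyap1, Asic4 and Kcng4), which summed to 83.4 to 92.9 FPKM in wild type and 83.0 to 97.0 FPKM in the cKO-labelled group, the SD over the 6 libraries was 0.205 for Tac1 against 0.243 for Tac1 alone. For Tac2 it was 0.243 against 0.356 alone, for Tacr1 0.180 against 0.233 and for Tacr3 0.322 against 0.184. Against the medial habenula markers the SD over the 6 libraries was 0.447 for Tac1, 0.210 for Tac2, 0.247 for Tacr1 and 0.561 for Tacr3. Against 6 lateral habenula markers it was 0.321, 0.324, 0.161 and 0.246 in that order. Calb1 held the largest part of the summed dorsal markers and was the highest of WT in WT replicate 3, at 48.8 FPKM. Wif1, Adcyap1 and Kcng4 were the lowest of WT in that library, at 3.97, 9.98 and 5.72 FPKM. Col16a1 and Asic4 stood there at 11.8 and 3.14 FPKM.

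**Figure D3:**
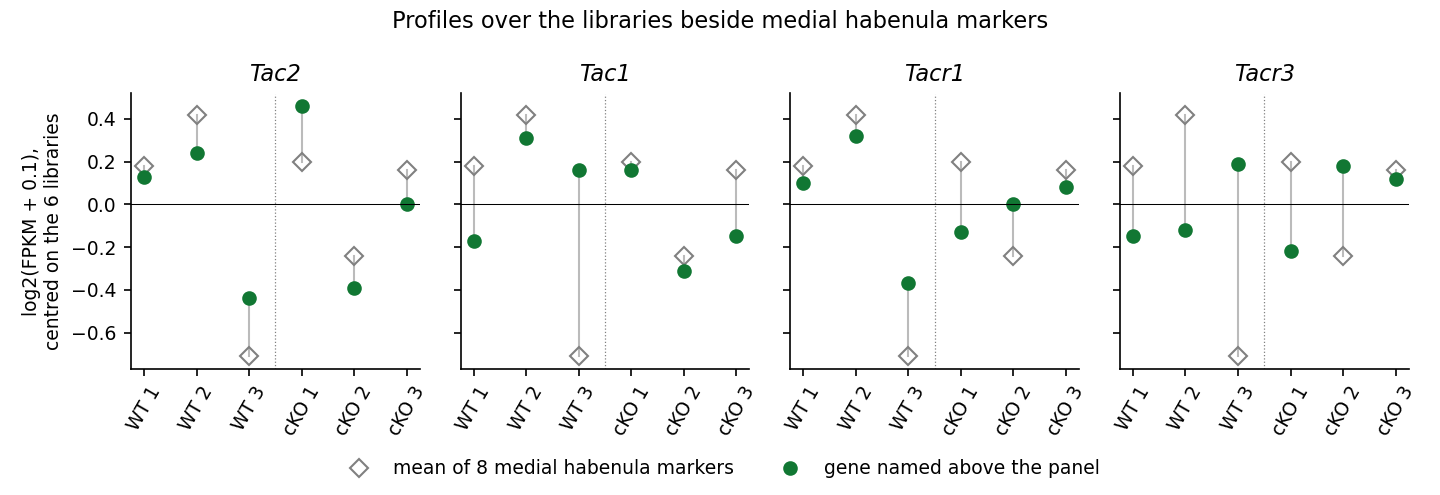
Log2(FPKM + 0.1), centred on the mean of the 6 libraries, for each gene (green) and for the mean of 8 medial habenula markers (grey diamonds), by library, where cKO stands for the Tet2 cKO label and grey bars join the values of 1 library. In WT replicate 3 the markers are at -0.71, Tac2 at -0.44 and Tacr1 at -0.37, while Tac1 and Tacr3 are at 0.16 and 0.19.

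Relative to the 8 medial habenula markers, the groups did not differ for any of the 4 genes, in a design of 3 against 3 whose smallest exact permutation p is 0.1. The difference, Tet2 cKO label minus WT, was -0.03 for Tac2 and -0.27 for Tac1 (exact two-sided permutation p = 0.9 for each). For Tacr1 it was -0.11 and for Tacr3 -0.03 (exact permutation p = 0.7 and 1.0). Every one of these signs turned without WT replicate 3, which gave 0.10 for Tac2, 0.094 for Tac1, 0.035 for Tacr1 and 0.42 for Tacr3. Tac2 also turned without Tet2 cKO replicates 2 and 3 (0.038 and 0.048), and Tacr1 and Tacr3 without Tet2 cKO replicate 1 (0.029 and 0.18).

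The balance of the 2 precursor genes, and of each precursor with the receptor its main peptide prefers, was compared within libraries. Tac2 stood at 9.97, 7.72 and 5.32 times Tac1 in WT and at 9.96, 7.67 and 8.97 times in the cKO-labelled group, and the low ratio of WT replicate 3 came with low Tac2 and unreduced Tac1. The log2 ratio was 2.89 ± 0.456 and 3.14 ± 0.190 (SD, n = 3 each), a difference of 0.25 (exact permutation p = 0.7). Without WT replicate 3 that difference was 0.0070. Tac2 stood at 25.7, 27.2 and 13.6 times Tacr3 in WT and at 34.1, 14.3 and 19.6 times in the cKO-labelled group, with the lowest ratios in the same pair of libraries that were lowest in medial habenula markers. The log2 ratio differed by 0.0012 between groups (exact permutation p = 1.0), and leaving out WT replicate 3 or Tet2 cKO replicate 1 gave -0.32 or -0.34. Tac1 stood at 1.28, 1.53 and 2.23 times Tacr1 in WT and at 1.89, 1.25 and 1.31 times in the cKO-labelled group. That log2 difference was -0.17 (exact permutation p = 0.6), and 0.059 without WT replicate 3.

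The genes with the most similar profile over the 6 libraries were found by the root mean square difference between centred log2(FPKM + 0.1) values, where a small value means a like profile. Nearest to Tac2 were Slc6a20a, Kash5, Nectin2, Cdca7l and Pou3f1, at 0.0918 to 0.117, and the nearest of the 8 medial habenula markers lay at 0.130 with 11 genes nearer. Nearest to Tac1 were Rnf8, Iqcc, Ankrd37, Tedc2 and Pcdhb3, at 0.0647 to 0.0849. No medial habenula marker lay under 0.304 from Tac1, with 10041 genes nearer. Nearest to Tacr1 were Taf9, Zscan2, Tbc1d14, Clic5 and Plxnc1, at 0.0425 to 0.0481, and its nearest medial habenula marker lay at 0.183 with 3098 genes nearer. Nearest to Tacr3 were Pou3f2, Usp27x, Trub1, Lrrtm3 and Ptprk, at 0.0419 to 0.0509. Every medial habenula marker was at 0.432 or more from Tacr3, with 11933 genes nearer. The 4 genes lay 0.294 to 0.486 from each other. With 6 libraries and 14539 genes such near matches are a description of these libraries.

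Genes that make, release and break down tachykinins, and that carry or end their signal, were expressed but did not differ between groups by the edgeR test. Of 41 genes in 5 lists, 37 were tested and 0 passed in either direction, against 0% of all tested genes. They were higher in 19 and lower in 18, with a median log2 difference of 0.00019 against -0.0021 over all tested genes. Groups did not overlap in 2 of the 37, or 5.41%, against 6.80% over all tested genes, namely Scg3 and Rgs2, the latter named because of this.

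Precursors are cut by convertases and trimmed and amidated before release. Of 6 processing genes tested, 4 were higher and 2 lower, with differences from -0.07 to 0.11. Cpe, the carboxypeptidase that removes the basic residues left by cutting, stood at 1120 ± 67.9 FPKM in wild type and 1218 ± 29.3 FPKM in the cKO-labelled group (SD, n = 3 each), a log2 difference of 0.11. Scg5, the chaperone 7B2 of the convertase PC2, and Pcsk1n, the precursor proSAAS that inhibits PC1/3, had means over all libraries of 129 and 124 FPKM and differed by 0.05 and -0.07. Among 7 genes of dense-core vesicle content and release, the granins Scg2, Chgb and Scg3 stood at means of 127, 116 and 75.6 FPKM. Scg3 was at 72.8, 76.7 and 66.3 FPKM in wild type and 79.7, 78.2 and 79.8 FPKM in the cKO-labelled group, a log2 difference of 0.13 (SE 0.0699, edgeR adjusted p = 0.9999).

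Among genes of peptide breakdown, 5 of 7 were tested, and Ece1 and Ece2, the endothelin-converting enzymes, differed by -0.08 and 0.03. Ace, the angiotensin-converting enzyme, which also cleaves substance P, stood at 8.24, 6.20 and 3.94 FPKM in wild type and at 3.65, 4.70 and 4.0 FPKM in the cKO-labelled group. WT replicates 1 and 2 were high, and WT replicate 3 lay inside the range of the other group. The log2 difference was -0.58 (SE 0.224, edgeR adjusted p = 0.9999, unadjusted p = 0.0275), and -0.30 without WT replicate 1. Without the limit on low values, which changes the genes the fit shares, Ace passed (edgeR adjusted p = 0.0154 at a log2 difference of -0.58). The summed level of 5 choroid plexus markers (Ttr, Folr1, Clic6, Kcne2 and Otx2), all detected, was 1379, 824 and 443 FPKM for WT and 815, 166 and 278 FPKM in the cKO-labelled group. Its order over the replicates was that of Ace in WT and the reverse of it in the cKO-labelled group. Their part in the Ace value was not tested.

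Downstream of the receptors, 11 of 13 genes of Gq/11 signalling were tested, 6 higher and 5 lower, from -0.14 to 0.13. Plcb4, a phospholipase C, and Prkce, a protein kinase C, had means of 30.9 and 32.8 FPKM and differed by -0.05 and 0.00019. Of 8 genes that end receptor signalling, 3 were higher and 5 lower. Grk2 and Grk3, kinases that phosphorylate active receptors, differed by -0.11 and 0.07, and Rgs4, which speeds the shut-off of Gq and Gi proteins, by 0.06 at a mean of 115 FPKM. Rgs2, which acts mainly on Gq, stood at 13.0, 13.0 and 13.8 FPKM in wild type and at 14.7, 14.7 and 14.6 FPKM in the cKO-labelled group, a log2 difference of 0.13 (SE 0.0719, edgeR adjusted p = 0.9999).

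**Figure D4:**
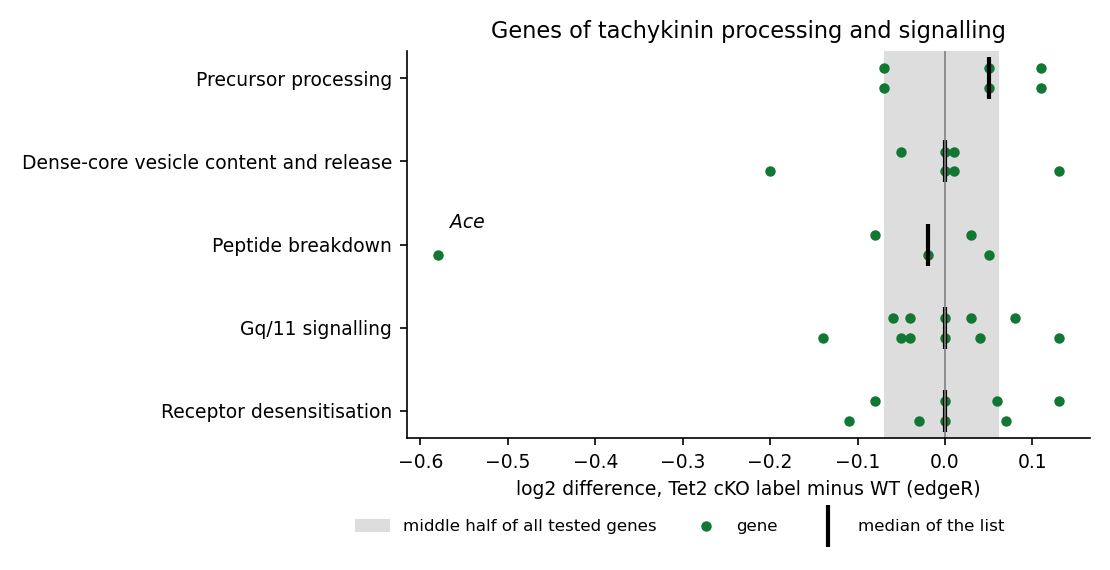
Log2 difference, Tet2 cKO label minus WT (edgeR), for the 37 tested genes (green points) of 5 lists, with the median of each list (black tick) and the interquartile range of all tested genes, from -0.068 to 0.060, shaded. Apart from Ace at -0.58 the genes lie between -0.20 and 0.13.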

How the data were processed

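The deposited table gives raw counts per Ensembl gene and FPKM values, per the file headers. The counts are whole numbers, and the deposited FPKM values equal the count divided by exonic gene size in kilobases and scaled to the library total, within 0.0051 for 100% of values. Gene lengths used for FPKM are the exonic gene sizes of the deposited table. The submitters' processing notes name HISAT2 2.0.1, SAMtools 0.1.19, cutadapt 1.9.1, FastQC 0.10.1 and the build mm10. How reads were counted, with which annotation and whether by strand, is not stated in the sources used here. No exon of a gene described by position overlaps another gene in GENCODE M21. Of 52083 identifiers shared with GENCODE M21, 51479 had the same chromosome and width but only 1494 the same start and end. The gene spans thus mostly matched in width while their positions did not, although the notes name mm10. Why they differ was not tested. Positions printed are those of GENCODE on GRCm38, joined by identifier.

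Genes averaging 1 FPKM or more across all 6 libraries (14539) had their counts tested with edgeR 4.0.16 in R 4.3.3 (two-sided quasi-likelihood test of the label, with TMM factors and no covariate), with Benjamini-Hochberg adjustment, a threshold of 0.05 and 95% intervals. DESeq2 1.42.0 and limma 3.58.1 were alternatives. The edgeR step was tested on simulated counts and the exact tests on data with known answers. Exact permutation tests over libraries used log2(FPKM + 0.1). Counting errors are those of the mean count and cover counting only. Library totals of 16089676 to 17917987 counts bear on the counting error, which for each of the 4 genes lay below the spread between libraries. Between libraries the chi-square of counts per gene was 4.09 to 20.3, so none was a copy of another. Sequences come from RefSeq (promoters, GRCm38.p6; 4 of 4 genes matched) and GENCODE transcripts.

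The genes described, the lists and the tests were chosen with earlier results of these data known. Genes named are the family, the 3 with the highest mean FPKM of each pathway list and any past the threshold, the medial habenula markers and the 5 nearest profiles of each of the 4 genes. Predicted genes, clones and pseudogenes were left out of the nearest profiles. Rgs2 falls outside this rule and was named after its values were seen. Of the genes this rule names and of the cell type markers, 2 are not reported here.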

Additional observations from a re-analysis of the deposited data

How the results depend on the processing

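Tac1 kept its sign in all 15 alternatives (-0.35 to -0.11), and no alternative brought any of the 4 genes past the threshold. Leaving out each library gave -0.19 to 0.237 for Tac2, -0.23 to 0.0911 for Tacr1 and -0.0406 to 0.179 for Tacr3, and no other setting turned their signs. The stricter limit of 5 FPKM left out Tacr1 and Tacr3. Relative to medial habenula markers, leaving out each library gave -0.519 to 0.0936 for Tac1, -0.164 to 0.101 for Tac2, -0.257 to 0.0348 for Tacr1 and -0.301 to 0.418 for Tacr3. Relative to dorsal medial habenula markers the differences turned to 0.115 for Tac2, 0.0326 for Tacr1 and 0.114 for Tacr3, while Tac1 was at -0.133. Against lateral habenula markers the differences were -0.327 for Tac1, -0.0795 for Tac2, -0.162 for Tacr1 and -0.0806 for Tacr3. The log2 ratio ran from -0.353 to 0.0588 for Tac1 to Tacr1 and from -0.341 to 0.285 for Tac2 to Tacr3. With 5 libraries the sign-flip test cannot give an exact p under 0.0625, so 0 of the 4 steps in the order of levels passed without any 1 library. Over all genes edgeR called 49 without a limit on low values (17 higher, 32 lower). Among the 14539 genes past the limit DESeq2 called 4. Leaving out each library gave 0 to 3 among them by edgeR, with 3 called without WT replicate 3 and 1 without WT replicate 2. Among pathway genes 1 was called without a limit (Ace). Leaving out each library gave -0.148 to 0.087 for Pcsk1n, -0.0142 to 0.193 for Scg5, -0.0296 to 0.0844 for Chgb, -0.0534 to 0.0744 for Scg2, -0.141 to 0.0101 for Plcb4 and -0.0587 to 0.0491 for Prkce. Prkce was at -0.00426 with upper quartile scaling. Scg2, near 0 throughout, was at 0.00099 with RLE size factors, 0.00523 with library totals, 0.00224 with no limit, 9.78e-05 with the stricter limit, 0.000976 with DESeq2 and 0.00822 and 0.0083 with limma (pseudocounts 1 and 0.1). The cause of these turns was not tested.

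Whether the replicate numbers pair the libraries is not known. The deviations of same-numbered libraries from their group means correlated at -0.0413, 0.176 and -0.102, and those of unlike numbers at -0.196 to 0.193. With 3 libraries a group the deviations are bound to each other, so these values cannot settle it. With the number as a block, 0 genes were called, and the log2 differences were -0.211 for Tac1, 0.0449 for Tac2, -0.0463 for Tacr1 and 0.041 for Tacr3. With 3 libraries a group and coefficients of variation of 13.3% to 24.2% over the 6 libraries, the intervals of the 4 genes leave room for differences up to the bounds given in the text. Counting error was largest for Tacr3, at 8.96%.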
